A study of Homo sapiens with 4 samples.

Results

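The short arm of chromosome 9 (9p) was described here through its accessible chromatin, in nuclei of Panc1 xenografts. Peaks of the 4 libraries were merged where they shared 1 bp or more, and every merged region on chromosome 9 between 0 and 39 Mb (build GRCh38, positions counted from 1) is a member. There were 1475 such regions of 128195 in the series. The arm was selected on its counts per library and per barcode, which were known to be low in some nuclei and to differ between the treatments, so its values in those contrasts are a description. Calls of the fits over the whole series are printed beside the share over all features, and nothing about the arm is read from them.

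Panc1 is an established human pancreatic ductal adenocarcinoma line, grown here in transplanted mice, with the tissue labelled pancreas. The Inflachromene libraries came from mice 11 and 35, which received inflachromene, a compound whose known targets are HMGB1 and HMGB2, proteins of the high mobility group that bend DNA in chromatin. The Carrier libraries came from mice 12 and 31, which received the carrier alone. The sources used here give no dose, duration, age or strain of the mice, and the number of cell clones that grew in each is not given. Within a group, the value of mouse 11 is given before that of mouse 35, and the value of mouse 12 before that of mouse 31. Each library is 1 mouse, and a single-nucleus ATAC count is a transposition event of 1 barcode in 1 peak.

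The libraries held between 27088391 and 39947056 counts. Between 684 and 1768 barcodes per library had at least 10000 counts and are called nuclei here. No doublet caller was run. Barcode sequences recurred between libraries: 1209 were shared by Inflachromene 11 and Carrier 12, 357 by Carrier 12 and Carrier 31, and 155 by Inflachromene 11 and Carrier 31, with 25 to 29 for each other pair. Pairs of libraries had 0 to 6 barcodes that reached 10000 counts in both. Of the nuclei, 23 in Inflachromene 11 and 23 in Inflachromene 35 had a barcode that occurs at any depth in another library, against 1117 in Carrier 12 and 426 in Carrier 31. Of the Panc1 markers in the start-site table, KRT8 and VIM had a region in all 4 libraries. KRT8 had 28.4 and 41.0 start-site CPM (counts scaled to a sum of 1000000 over start-site regions) in Inflachromene mice, against 22.8 and 23.2 in Carrier mice. VIM had 194 and 212 in Inflachromene mice, against 215 and 206 in Carrier mice. Markers of T and NK, acinar and endocrine cells had no such region. Among stromal and myeloid markers, PDGFRA, PDGFRB, ERG, CD14 and CSF1R had one, with 9.06 to 56.6 start-site CPM, while KDR, TIE1 and PTPRC had none. The part of stromal and myeloid cells in the results below was not tested, and neither was that of reads from the host mouse.

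The band 9p21 holds CDKN2A, which encodes the tumour suppressors p16INK4A and p14ARF from separate first exons, and CDKN2B, which encodes p15INK4B. The p16 and p15 proteins inhibit the kinases CDK4 and CDK6 that drive cells into the cycle, and p14ARF stabilises p53. The locus is inactivated in most pancreatic ductal adenocarcinomas, often by a deletion that also takes the neighbouring MTAP, an enzyme that recycles methylthioadenosine to adenine and methionine, and Panc1 is known to lack CDKN2A. The type I interferon genes lie beside it on the side of the telomere.

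Promoter sequences of 7 start sites are shown because they stand on either side of the boundaries described below: MLLT3 lies in the stretch that was lowest in the affected nuclei, MTAP and DMRTA1 are the nearest genes with an open start on each side of the stretch without peaks, CDKN2A and CDKN2B lie inside that stretch, and IFNB1 stands for the interferon cluster. Each is the 250 bases before the start site, 5′ to 3′ on the gene's strand, from RefSeq (GRCh38.p14). Capitals mark the GC box (GGGCGG, or CCGCCC on the other strand, with overlapping matches allowed), the known site of the Sp1 family, except in IFNB1, where they mark the TATA box (TATAAA, or TTTATA on the other strand).
MLLT3 promoter, chr9:20622500-20622749, minus strand: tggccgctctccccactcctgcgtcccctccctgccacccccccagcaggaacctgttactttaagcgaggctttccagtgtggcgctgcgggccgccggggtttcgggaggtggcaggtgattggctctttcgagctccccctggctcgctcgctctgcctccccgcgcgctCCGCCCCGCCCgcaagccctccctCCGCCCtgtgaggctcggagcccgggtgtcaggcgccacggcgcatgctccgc
MTAP promoter, chr9:21802386-21802635, plus strand: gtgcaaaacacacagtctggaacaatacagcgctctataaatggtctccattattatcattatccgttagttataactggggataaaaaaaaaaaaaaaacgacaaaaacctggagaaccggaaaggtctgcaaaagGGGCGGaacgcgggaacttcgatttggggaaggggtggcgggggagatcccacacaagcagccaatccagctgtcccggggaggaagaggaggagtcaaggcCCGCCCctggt
CDKN2A promoter of the outer start, chr9:21995325-21995574, minus strand: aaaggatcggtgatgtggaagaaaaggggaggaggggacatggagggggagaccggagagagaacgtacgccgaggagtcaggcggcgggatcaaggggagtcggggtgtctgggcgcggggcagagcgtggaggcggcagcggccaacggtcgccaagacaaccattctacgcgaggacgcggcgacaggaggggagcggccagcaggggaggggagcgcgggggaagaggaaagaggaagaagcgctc
CDKN2A promoter of the inner start, chr9:21974858-21975107, minus strand: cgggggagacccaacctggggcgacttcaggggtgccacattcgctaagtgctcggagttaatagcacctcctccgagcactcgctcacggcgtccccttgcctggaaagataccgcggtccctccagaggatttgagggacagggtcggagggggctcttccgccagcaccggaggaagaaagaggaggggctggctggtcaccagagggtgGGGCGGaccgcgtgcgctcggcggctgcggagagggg
CDKN2B promoter, chr9:22009306-22009555, minus strand: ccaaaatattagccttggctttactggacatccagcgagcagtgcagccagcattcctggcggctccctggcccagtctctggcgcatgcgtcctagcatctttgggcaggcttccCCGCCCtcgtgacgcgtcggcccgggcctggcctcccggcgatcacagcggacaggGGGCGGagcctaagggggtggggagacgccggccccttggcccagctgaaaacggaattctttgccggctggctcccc
DMRTA1 promoter, chr9:22446574-22446823, plus strand: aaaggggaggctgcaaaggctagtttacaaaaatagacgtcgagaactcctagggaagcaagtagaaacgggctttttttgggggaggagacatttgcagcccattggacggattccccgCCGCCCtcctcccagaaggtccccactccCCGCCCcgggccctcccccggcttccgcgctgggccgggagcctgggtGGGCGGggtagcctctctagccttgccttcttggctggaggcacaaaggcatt
IFNB1 promoter, chr9:21077943-21078192, minus strand: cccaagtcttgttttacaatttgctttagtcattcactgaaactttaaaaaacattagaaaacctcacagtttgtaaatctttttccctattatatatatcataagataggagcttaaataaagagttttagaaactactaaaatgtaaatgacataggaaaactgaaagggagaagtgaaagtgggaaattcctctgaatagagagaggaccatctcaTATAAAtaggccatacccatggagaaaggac

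The GC box was found 3 times in the MLLT3 promoter, 2 times in that of MTAP, 3 times in that of DMRTA1 and 2 times in that of CDKN2B. At CDKN2A it was found 1 time before the inner start, which gives p16INK4A, and 0 times before the outer start, which gives p14ARF. Both CDKN2A promoters are 66.8% G and C and that of CDKN2B is 66.4%, against 72% at MLLT3, 61.6% at DMRTA1, 50% at MTAP and 32.4% at IFNB1. Across all chromosomes 53.7% of 22132 protein-coding start sites had a GC box in this window, and 53.3% of the 255 on 9p had one. The box stood at 65.3% of the 167 start sites of 9p genes with a region in all 4 libraries and at 30.7% of the 88 start sites of the other 9p genes. The TATA box stood at 8.996% of all start sites and at 8.24% of those on 9p.

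Peaks were thinner on 9p as a whole than elsewhere and unevenly spread. The arm held 37.8 merged regions per Mb, against 42.9 on the long arm and 43.4 over all chromosomes. It held 13.5 per Mb before 14.7 Mb, 80.4 from there to 19.9 Mb and 101.5 from there to 20.8 Mb. From 20.8 to 27.6 Mb it held 26.5 per Mb, then 51.1 up to 37.8 Mb and 53.6 beyond. Regions with a peak in all 4 libraries, called consensus regions, numbered 531 of the 1475 members, or 36% against 39.6% over all chromosomes. A further 161 had a peak in 3 libraries, 235 in 2 and 548 in 1. By library, 840 members had a peak in Inflachromene 11 and 993 in Inflachromene 35, against 939 in Carrier 12 and 853 in Carrier 31. Members with a peak in both Inflachromene libraries and in neither Carrier library numbered 40 of 1475, and those with the opposite pattern 42. Over all chromosomes the numbers were 4666 and 2046 of 128195 regions. Inflachromene 35 had the most deposited peaks, 96240 against 75717 to 78639 in the other libraries, and the part of this in these numbers was not tested.

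The longest stretch of 9p without a peak in any library ran for 2341477 bp over TYRP1 and a part of PTPRD, a receptor phosphatase gene. The stretch over 9p21 was shorter. It began at chr9:21819594, inside MTAP (chr9:21802636-21941115), covered CDKN2A (chr9:21967752-21995324), CDKN2B (chr9:22002903-22009313) and all of the antisense RNA gene CDKN2B-AS1, and ended at chr9:22345021. Its 525428 bp placed it at rank 577 of 128172 gaps between merged regions, the 99.5th percentile. On 9p itself 10 gaps were longer, and they lay over genes such as LINGO2, ELAVL2 and PTPRD.

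The MTAP gene was cut by this stretch. Its start site lay in a consensus region (chr9:21802079-21803038) with 4421 and 5178 counts in Inflachromene 11 and Inflachromene 35, against 6698 and 5555 counts in Carrier 12 and Carrier 31. A second consensus region inside MTAP (chr9:21813608-21814388) had 43.2 and 36.2 region CPM (counts scaled to a sum of 1000000 over consensus regions) in Inflachromene mice, against 53.7 and 44.4 in Carrier mice. The last peak before the stretch was called in Carrier 31 alone. On the far side a region called in 3 libraries began at chr9:22345022, and the first consensus region there (chr9:22373503-22374642) had 201 and 225 counts in Inflachromene mice, against 335 and 230 in Carrier mice. Thus signal was present on both flanks in every library.

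Some of the most open single regions of the arm lay between MIR31HG and MTAP. Of the 3 regions of 9p with the highest count per kb, 2 lay between MIR31HG, the host transcript of the microRNA miR-31, and MTAP. The first (chr9:21591398-21592299) had 203 and 206 region CPM in Inflachromene mice, against 251 and 223 in Carrier mice. The second (chr9:21684635-21685573) had 188 and 214 in Inflachromene mice, against 258 and 219 in Carrier mice. It lay 117063 bp before MTAP and had a mean of 234 region CPM per kb. The last consensus region before the gene (chr9:21796418-21797431) had 9.42, so the chromatin next to MTAP was not open throughout. The third was the shared start of SAXO1, a microtubule-stabilising protein gene, and RRAGA, a GTPase gene of amino acid sensing by mTORC1 (chr9:19048859-19049785), with 201 and 154 in Inflachromene mice, against 231 and 225 in Carrier mice. The start of MIR31HG itself (chr9:21559455-21560389) had 165 and 125 in Inflachromene mice, against 160 and 155 in Carrier mice, so its groups overlapped.

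A summed count cannot tell fewer nuclei with open 9p from less signal in every nucleus, so nuclei were scored singly. Over the whole arm, the score was the log2 of the share of a nucleus's consensus counts that fell on 9p, relative to the mean of the 4 library medians, and a nucleus below -0.5 was called arm-low. Arm-low nuclei made up 19.5% (95% Clopper-Pearson interval 17.3 to 21.95) of Inflachromene 11 and 18.3% (16.5 to 20.2) of Inflachromene 35, against 5.60% (4.57 to 6.78) of Carrier 12 and 9.94% (7.80 to 12.4) of Carrier 31. These intervals cover counting error over barcodes, not the spread between mice. The mean was 18.9% ± 0.860 in Inflachromene and 7.77% ± 3.07 in Carrier libraries (SD, n = 2 each). Both Inflachromene libraries lay above both Carrier libraries, and with 2 libraries a group an exact permutation test cannot go below p = 0.33.

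To find where the low signal began and ended, counts per 1 Mb were compared between arm-low and other nuclei within each library, and each bin was read in nuclei scored on bins of the other parity only. A bin was low where the log2 ratio of its share of counts was under -0.3 in all 4 libraries. The longest run of low bins reached from 15 to 28 Mb and held 10 low bins. The bins from 36 to 38 Mb also met the limit and stood apart from the run, and none of the bins read before 15 Mb met it. The bin from 20 to 21 Mb was the lowest, at -1.59 and -1.12 in Inflachromene 11 and Inflachromene 35 and at -1.85 and -1.55 in Carrier 12 and Carrier 31. Just outside, the bin from 14 to 15 Mb stood at -0.01 and -0.32 in Inflachromene mice, and at -0.01 and -0.24 in Carrier mice. On the centromere side the bin from 36 to 37 Mb stood at -0.50 and -0.36 in Inflachromene mice, and at -0.54 and -0.60 in Carrier mice, while the bin from 38 to 39 Mb stood at 0.08 and 0.10 in Inflachromene mice, and at -0.06 and -0.31 in Carrier mice. A run was allowed to pass over single bins that missed the limit, and the run from 15 to 28 Mb passed over none of these. Bins with under 3 consensus regions were not read, which left out 23 to 26 Mb and 28 to 32 Mb. Before 15 Mb it left out 1 to 2, 7 to 12 and 13 to 14 Mb, so much of the distal arm has no value. The bins therefore place the end of the run no closer than 28 to 32 Mb. With a limit of -0.2, or with the limit of -0.3 asked of 3 libraries, the run extended to 38 Mb, but the bins from 32 to 33 and from 35 to 36 Mb within it did not meet the limit.

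**Figure D1:**
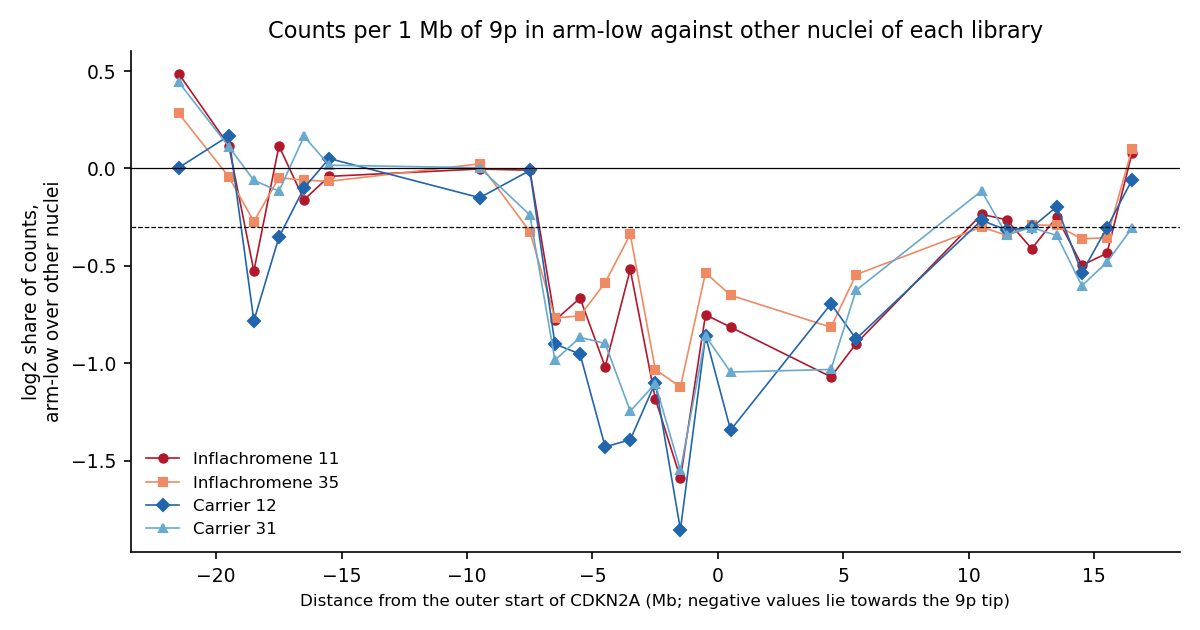
The log2 ratio of each 1 Mb bin's share of counts in arm-low over other nuclei (y axis) is plotted against the bin's distance from the outer start of CDKN2A in Mb (x axis), with 1 line per library, and bins with under 3 consensus regions left out. All 4 lines lie below the dashed limit of -0.3 in the 10 bins of the low run, are lowest in the bin that holds MLLT3, and lie between -0.31 and 0.49 in the outermost bins of the arm.

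When nuclei were scored over the interval from 15 to 28 Mb alone, a choice made after the data were seen, 3 of the 4 distributions had a distinct second maximum on the low side of -0.5, and Carrier 12 had a low tail with a slight maximum. In bins of 0.1, the fullest bin of Inflachromene 35 began at -0.8 and held 7.71% of its nuclei, and a second maximum of 6.49% began at 0.3. In Inflachromene 11 the fullest bin began at 0.2 with 8.36%, and a lower maximum of 4.93% began at -1. In Carrier 12 and Carrier 31 the fullest bin began at 0.3 with 13.6% and 10.8%, and the lower maxima reached 1.47% and 3.22%. Nuclei below -0.5, called interval-low, numbered 406 of 1137 in Inflachromene 11, or 35.7% (32.9 to 38.6), and 777 of 1726 in Inflachromene 35, or 45.0% (42.7 to 47.4). In the Carrier libraries they numbered 187 of 1768 in Carrier 12, or 10.6% (9.18 to 12.1), and 115 of 684 in Carrier 31, or 16.8% (14.1 to 19.8). All 4 libraries thus held such nuclei, in larger shares of both Inflachromene libraries. The limit of -0.5 falls on the flank of the lower peak of Inflachromene 35, where 13.3% of nuclei lay within 0.1 of it, against 6.68% in Inflachromene 11, 2.21% in Carrier 12 and 2.92% in Carrier 31.

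**Figure D2:**
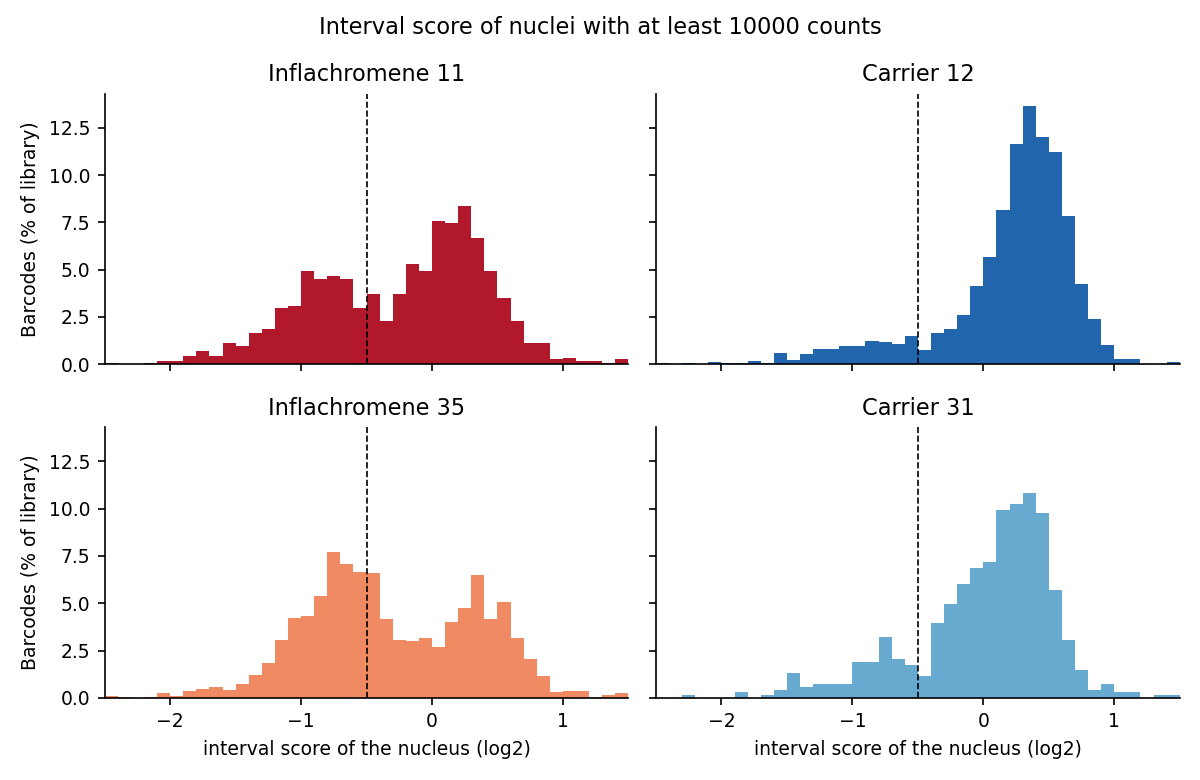
The 4 histograms give the share of each library's nuclei (y axis, percent) in bins of 0.1 of the interval score (x axis, log2), with the Inflachromene libraries on the left, the Carrier libraries on the right and a dashed line at -0.5. Nuclei below the line make up 35.7% and 45.0% of the libraries in Inflachromene mice, against 10.6% and 16.8% in Carrier mice.

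Depth differed little between the classes within a library. The median was 21076.5 counts in interval-low and 20127 in other nuclei of Inflachromene 11, 22142 and 20719 in Inflachromene 35, 17000 and 17100 in Carrier 12, and 39470 and 40199 in Carrier 31. A nucleus had a median of 86 and 77 counts over the interval in Inflachromene mice, against 102 and 207.5 in Carrier mice, so the fewest counts stood behind a score in Inflachromene 35. The difference between Inflachromene and Carrier libraries in the share of interval-low nuclei was 26.7 points, and it was 25.3 points after every nucleus was thinned to 8000 consensus counts. Without barcodes that occur in more than 1 library it was 26.4 points.

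Single consensus regions gave finer edges than the bins. The log2 ratio of interval-low to other nuclei was fitted along 9p with 6 levels of at least 3 regions each, in all 4 libraries together, and regions inside the interval were again read in nuclei scored on the other parity, which draws their values towards 0. The first level, from the tip to 14.7 Mb, lay at 0.11 and -0.03 in Inflachromene 11 and Inflachromene 35, and at 0.02 and 0.09 in Carrier 12 and Carrier 31, over 88 regions. The second ran to 19.9 Mb over 115 regions, at -0.79 and -0.75 in Inflachromene mice, and at -0.74 and -0.72 in Carrier mice. The places of the steps were fitted to all 4 libraries at once, so they are shared by construction; the level of each library was free. Of the regions of the second level, 96 of 115 were below 0 in all 4 libraries, against 16.7% of the 50771 consensus regions of the series.

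The step down lay between the start of ZDHHC21 and the body of FREM1. ZDHHC21, a palmitoyltransferase gene, had its start region at chr9:14692937-14693932, with a log2 ratio of 0.34 and 0.39 in Inflachromene mice, and of 0.03 and -0.60 in Carrier mice. The next consensus region (chr9:14768326-14769109), inside the extracellular matrix gene FREM1, stood at -1.03 and -0.81 in Inflachromene mice, and at -1.69 and -0.41 in Carrier mice. Fitted by itself with 5 levels, each of Inflachromene 11, Inflachromene 35 and Carrier 12 put the step at this same place, and Carrier 31 put it before chr9:14428514, inside NFIB.

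Inside the low interval a deeper stretch covered the part of SLC24A2 on the centromere side, all of MLLT3 and the start of FOCAD. It held 21 consensus regions from chr9:19934183 to chr9:20732802, at -1.64 and -1.56 in Inflachromene mice, and at -1.63 and -1.61 in Carrier mice. All 21 were below 0 in all 4 libraries. SLC24A2 encodes a sodium, calcium and potassium exchanger, MLLT3 (AF9) a reader of acylated histones in the super elongation complex, and FOCAD a focal adhesion protein that also hosts the microRNA miR-491. The MLLT3 start region (chr9:20621795-20622950) stood at -1.46 and -1.68 in Inflachromene 11 and Inflachromene 35, and at -1.74 and -1.67 in Carrier 12 and Carrier 31. The FOCAD start region (chr9:20683746-20684664) stood at -1.49 and -1.40 in Inflachromene mice, and at -1.18 and -1.13 in Carrier mice. The neighbouring consensus regions, inside SLC24A2 before the stretch (chr9:19925793-19926699) and inside FOCAD after it (chr9:20940755-20941626), were less low, with means over the 4 libraries of -1.10 and -0.92.

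The fourth level resumed the shallower depth and contained the 9p21 genes. It ran to 27.6 Mb over 79 regions, at -0.70 and -0.67 in Inflachromene mice, and at -0.75 and -0.73 in Carrier mice, and 74 of 79 regions were below 0 in all 4. The MTAP start region stood at -0.72 and -0.65 in Inflachromene 11 and Inflachromene 35, and at -0.52 and -0.41 in Carrier 12 and Carrier 31. MTAP was thus lower in interval-low nuclei of every library, and it kept signal in them. The medians over the 31 consensus regions between MIR31HG and MTAP and over the 7 after the stretch without peaks were -0.87 and -0.96.

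In the joint fit the level ended between the start of MOB3B and that of C9orf72 (chr9:27573262-27574171). C9orf72 is a gene of autophagy and endosomal traffic whose repeat expansion is known in motor neuron disease. Fitted by itself with 5 levels, only Inflachromene 35 put the edge there. The level ended at chr9:32378966 in Inflachromene 11 and at chr9:27195133 in Carrier 31. In Carrier 12, and in the joint fit with 5 levels, it ended at chr9:27574171, after the C9orf72 start. The fifth level covered 200 regions to 37.8 Mb, at -0.35 and -0.20 in Inflachromene mice, and at -0.26 and -0.32 in Carrier mice; 126 of the 200 were below 0 in all 4 libraries. It ended between TRMT10B, a tRNA methyltransferase gene, and EXOSC3, an RNA exosome subunit gene. Fitted by itself with 6 levels, Inflachromene 11 put an edge there and Carrier 12 put one before chr9:37594123. Inflachromene 35 and Carrier 31 had no edge near it. The last level, 28 regions up to 39 Mb, lay at 0.12 and -0.00 in Inflachromene mice, and at -0.02 and -0.18 in Carrier mice. From 39 Mb to the end of the chromosome, 14.0% of 1428 regions were below 0 in all 4 libraries, close to the 16.7% of all chromosomes. The 6 levels left 26.6% of the variation among regions.

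**Figure D3:**
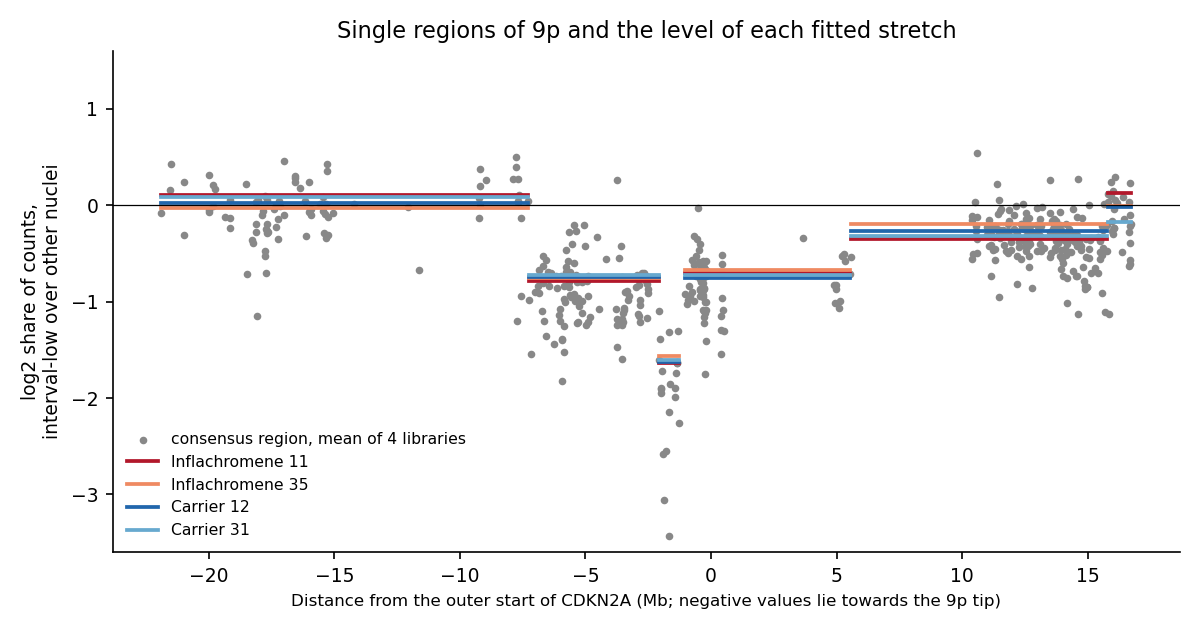
Each grey point is a consensus region of 9p, placed by its distance from the outer start of CDKN2A in Mb (x axis) and by the log2 ratio of its share of counts in interval-low over other nuclei (y axis, mean of 4 libraries), and coloured lines give the level of each fitted stretch per library. The lines of the 4 libraries lie close together in each stretch and are deepest, between -1.56 and -1.64, over SLC24A2, MLLT3 and FOCAD.

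The deeper stretch was then read in nuclei scored on the rest of the interval, so that its own counts did not choose them. Such low nuclei had a mean of 3.14 and 3.07 counts there in Inflachromene 11 and Inflachromene 35, and of 2.80 and 5.41 in Carrier 12 and Carrier 31. Other nuclei had 9.22 and 8.08 counts in Inflachromene mice, and 9.42 and 18.8 in Carrier mice. After thinning to 8000 consensus counts, 40.9% and 39.9% of low nuclei had 0 counts in the stretch in Inflachromene mice, and 41.6% and 36.3% in Carrier mice. The same share in other nuclei was 7.86% and 15.1% in Inflachromene mice, and 5.41% and 4.04% in Carrier mice. Low nuclei thus kept some counts in the stretch, and the share of nuclei with none was alike in all 4 libraries among the low ones.

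In finer classes of the score, the deeper stretch was already low just under -0.5. Relative to nuclei with a score of 0 or above, its log2 share of counts in nuclei between -0.75 and -0.5 was -1.68 and -1.96 in Inflachromene mice, and -1.72 and -1.78 in Carrier mice. In nuclei under -1 it was -2.01 and -1.97 in Inflachromene mice, and -1.88 and -1.99 in Carrier mice. Between -0.5 and -0.25 it was -1.02 and -1.83 in Inflachromene 11 and Inflachromene 35, and -0.80 and -0.58 in Carrier 12 and Carrier 31. In this class Inflachromene 35 stood with the low classes and the other libraries lay between low and high. The first level of the arm moved by at most 0.18 in any class.

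Scores over the stretch from C9orf72 to TRMT10B were lower in these low nuclei than in the others. The score was under -0.5 in 23.6% and 20.2% of low nuclei in Inflachromene mice, and in 20.8% and 21.1% in Carrier mice. Among other nuclei the share was 4.47% and 5.56% in Inflachromene mice, and 2.33% and 3.86% in Carrier mice. The median score over the stretch was -0.25 and -0.20 in low nuclei of the Inflachromene libraries, and -0.24 and -0.32 in those of the Carrier libraries. In other nuclei the median was 0.08 and 0.04 in Inflachromene mice, and 0.06 and 0.08 in Carrier mice. The median low nucleus was thus less reduced there than over the interval itself. Whether the stretch was low in a part of the low nuclei or somewhat lower in most of them was not tested.

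Interval-low nuclei also differed from the others outside 9p. The genome was divided into 297 windows of 10 Mb holding 20 or more consensus regions, and those from 20 to 30 and from 10 to 20 Mb of chromosome 9 were the lowest, with means of -1.18 and -1.14, and they contain the interval that chose the nuclei. The next was chromosome 12 from 20 to 30 Mb, at -0.64 and -0.10 in Inflachromene mice, and at -0.55 and -0.82 in Carrier mice. The highest was chromosome 3 from 0 to 10 Mb, at 0.74 and 0.55 in Inflachromene mice, and at 0.85 and 0.58 in Carrier mice. The window from 30 to 40 Mb of chromosome 9 ranked 11th from the lowest, so several other parts of the genome differed between these nuclei as much as the proximal part of 9p did. The part of these differences in the results on 9p was not tested.

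Summed over all barcodes, the arm took a smaller share of consensus counts in Inflachromene libraries. It was 1.32% and 1.28% in Inflachromene 11 and Inflachromene 35, against 1.51% and 1.41% in Carrier 12 and Carrier 31. The mean was 1.30% ± 0.0234 in Inflachromene and 1.46% ± 0.0732 in Carrier libraries (SD, n = 2 each), a difference of -0.160 points. The groups did not overlap, but they did when each barcode was counted once per region, with 1.223% and 1.194% in Inflachromene mice, against 1.377% and 1.220% in Carrier mice and a difference of -0.0898 points. Among nuclei that were not interval-low the shares were 1.50% and 1.48% in Inflachromene mice, against 1.58% and 1.50% in Carrier mice, and the difference was -0.0459 points; there Inflachromene 11 lay just above Carrier 31. Without barcodes that occur in more than 1 library the difference over all barcodes was -0.140 points.

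By stretch, the difference followed the levels seen within libraries. The log2 ratio of Inflachromene to Carrier mean shares of counts was 0.02 before 14.7 Mb, -0.33 in the second stretch, -0.51 in the deeper stretch, -0.31 in the fourth, -0.07 from C9orf72 to TRMT10B and 0.06 beyond, with -0.01 over the rest of chromosome 9. Among nuclei that were not interval-low the same ratios were -0.02, -0.09, -0.20, -0.08, -0.00 and 0.02, with -0.02 over the rest of chromosome 9. Leaving out interval-low nuclei thus brought every low stretch closer to 0, and the deeper stretch stayed the lowest. The 15 to 28 Mb interval chose those nuclei, so these values describe how far the summed difference lies in them and test nothing.

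Per 1 Mb bin, the lowest values lay between 15 and 23 Mb. The bin from 20 to 21 Mb had 346 and 287 bin CPM (counts scaled to a sum of 1000000 over bins) in Inflachromene 11 and Inflachromene 35, against 487 and 402 in Carrier 12 and Carrier 31, a log2 fold change of -0.49 (SE 0.11). Next was the bin from 17 to 18 Mb, with 49.0 and 46.4 in Inflachromene mice, against 74.8 and 57.8 in Carrier mice (-0.48, SE 0.17). The bin from 19 to 20 Mb had 1057 and 862 in Inflachromene mice, against 1352 and 1224 in Carrier mice (-0.43, SE 0.10). The bins from 22 to 23 and from 15 to 16 Mb followed, at -0.35 and -0.32. The bin from 21 to 22 Mb, with MIR31HG, MTAP and CDKN2A, had 1979 and 2105 in Inflachromene mice, against 2743 and 2332 in Carrier mice (-0.31, SE 0.08). In each of these 6 bins the groups did not overlap. Over the 25 bins of the arm, Inflachromene was lower without overlap in 11 and higher in 1. Over all bins of the series the shares were 14.9% and 15.2%. The median over the 25 bins of the arm was -0.07, and -0.11 without Inflachromene 11, with 19 of 25 below 0 against 52.3% of 2303 bins of the series. With edgeR's quasi-likelihood test and Benjamini-Hochberg adjustment over all bins, 0 bins were called on 9p or elsewhere (0%), 7 of the 25 had an unadjusted p under 0.05 against 5.08% of all bins, and DESeq2 called 2 of the 25 against 0.261% of all. The arm was selected on these same counts, so an excess on 9p over the series is no evidence about it, here and for the regions and start sites that follow. The edgeR calls on 9p were 6 without Inflachromene 11, 3 without Inflachromene 35, 0 without Carrier 12 and 3 without Carrier 31, when 138, 31, 0 and 12 of all bins were called.

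**Figure D4:**
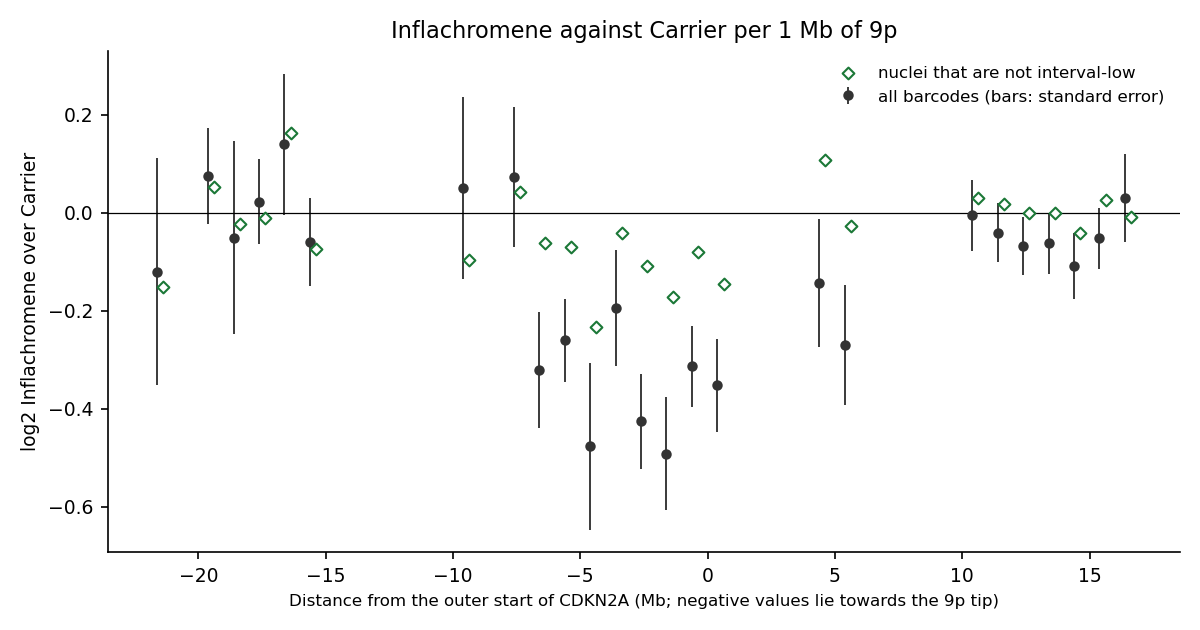
The log2 ratio of Inflachromene to Carrier counts per 1 Mb bin (y axis) is plotted against distance from the outer start of CDKN2A in Mb (x axis); filled circles are all barcodes with the standard error of the fit over 4 libraries, and open diamonds are nuclei that are not interval-low. The circles are lowest, at -0.49, in the bin that holds MLLT3, and the diamonds lie closer to 0 in that bin, at -0.17.

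Among single consensus regions of 9p, the median log2 fold change was -0.15, and it was -0.090 without Carrier 12; 375 of 531 were below 0, against 48.3% of all consensus regions. Groups did not overlap with Inflachromene lower in 196 of 531 regions, against 17.5% of all, and with Inflachromene higher in 39, against 14% of all. With edgeR and Benjamini-Hochberg adjustment over all 50771 regions, 0 were called on 9p or elsewhere (0%). At an unadjusted p under 0.05 there were 62 of 531, against 4.48% of all. DESeq2 called 0 on 9p and 0.0551% of all. Without Inflachromene 11, edgeR called 34 regions of 9p and 3180 in all, without Inflachromene 35 it called 3 and 299, and without Carrier 12 or Carrier 31 it called 0 on 9p, with 0 and 5 in all.

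Of the 10 regions lower in Inflachromene with the smallest unadjusted p, all lay in the second, the third and the fourth stretches. They included 4 in the deeper stretch, 2 inside MLLT3, 1 inside SLC24A2 and 1 just outside the MLLT3 start. The region inside BNC2, a zinc finger gene (chr9:16729348-16730246), had 5.59 and 5.03 region CPM in Inflachromene 11 and Inflachromene 35, against 10.1 and 8.71 in Carrier 12 and Carrier 31 (log2 fold change -0.83, SE 0.23). A region of MLLT3 (chr9:20558382-20559257) had 17.7 and 16.3 in Inflachromene mice, against 30.7 and 22.9 in Carrier mice (-0.66, SE 0.20). A region near DMRTA1, a doublesex-related transcription factor gene (chr9:22514559-22515546), had 3.72 and 3.22 in Inflachromene mice, against 5.82 and 6.57 in Carrier mice (-0.84, SE 0.25). In these the groups did not overlap, as the choice required.

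The 10 regions higher in Inflachromene with the smallest unadjusted p lay both inside and outside the low interval. The one with the smallest unadjusted p lay inside AQP7, an aquaglyceroporin gene that takes glycerol across membranes (chr9:33390980-33391976), with 15.4 and 17.2 region CPM in Inflachromene mice, against 9.50 and 8.87 in Carrier mice (log2 fold change 0.83, SE 0.20). Next was a region in RUSC2, a gene of vesicle traffic (chr9:35510704-35511659), with 27.7 and 29.3 in Inflachromene mice, against 19.8 and 21.7 in Carrier mice (0.46, SE 0.17). The start of PLGRKT, a plasminogen receptor gene (chr9:5437420-5438326), had 16.2 and 16.7 in Inflachromene mice, against 11.6 and 12.1 in Carrier mice (0.47, SE 0.19). Of these 10 regions, 3 lay within the interval, inside ADAMTSL1 and near CCDC171.

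Start sites give the arm by gene. A protein-coding gene was counted as open where a consensus region lay within 1000 bp of a start site, which held for 114 of 183 genes on 9p (62.3%) and for 10464 of 15812 over all chromosomes (66.2%). The share was 23 of 45 before 14.7 Mb, 11 of 17 in the second stretch, 2 of 2 in the deeper one, 9 of 29 in the fourth, 62 of 82 from C9orf72 to TRMT10B and 7 of 8 beyond. The fourth stretch was thus the poorest in open genes, and it holds CDKN2A, CDKN2B and the interferon cluster. Regions shared by several genes leave 103 distinct start-site regions on 9p, with a median log2 fold change of -0.06; 70 of 103 were below 0, against 50.2% of 9381 over all chromosomes. With edgeR, 0 of 103 passed an adjusted p of 0.05, as did 0% of all, and 20 had an unadjusted p under 0.05, against 5.88% of all. DESeq2 called 4 of 103, against 0.149% of all. Without Inflachromene 11 edgeR called 11 start-site regions of 9p and 49 in all, without Inflachromene 35 it called 0 and 12, without Carrier 12 it called 0 and 1, and without Carrier 31 it called 0 and 0.

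Of CDKN2A and its listed neighbours, 9 genes were in the start-site table and 6 had an open start. Of these 6, 5 were below 0 and the median log2 fold change was -0.36. MTAP had 408 and 386 start-site CPM in Inflachromene 11 and Inflachromene 35, against 559 and 484 in Carrier 12 and Carrier 31 (log2 fold change -0.39, SE 0.08). MLLT3 had 230 and 189 in Inflachromene mice, against 304 and 262 in Carrier mice (-0.43, SE 0.10), and FOCAD had 185 and 158 in Inflachromene mice, against 230 and 217 in Carrier mice (-0.38, SE 0.09). In all 3 both Inflachromene libraries were below both Carrier libraries, as they were in 16.9% of all start-site regions of the series. KLHL9, a substrate adaptor of a CUL3 ubiquitin ligase, had 74.9 and 66.1 in Inflachromene mice, against 88.0 and 81.9 in Carrier mice (-0.27, SE 0.10). DMRTA1 had 114 and 98.4 in Inflachromene mice, against 134 and 135 in Carrier mice (-0.34, SE 0.09). TUSC1, a candidate tumour suppressor, had 35.5 and 20.8 in Inflachromene mice, against 20.1 and 34.4 in Carrier mice (0.04, SE 0.30), so its groups overlapped; CDKN2A, CDKN2B and ELAVL2, a neuronal RNA-binding protein gene, had no consensus region.

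**Figure D5:**
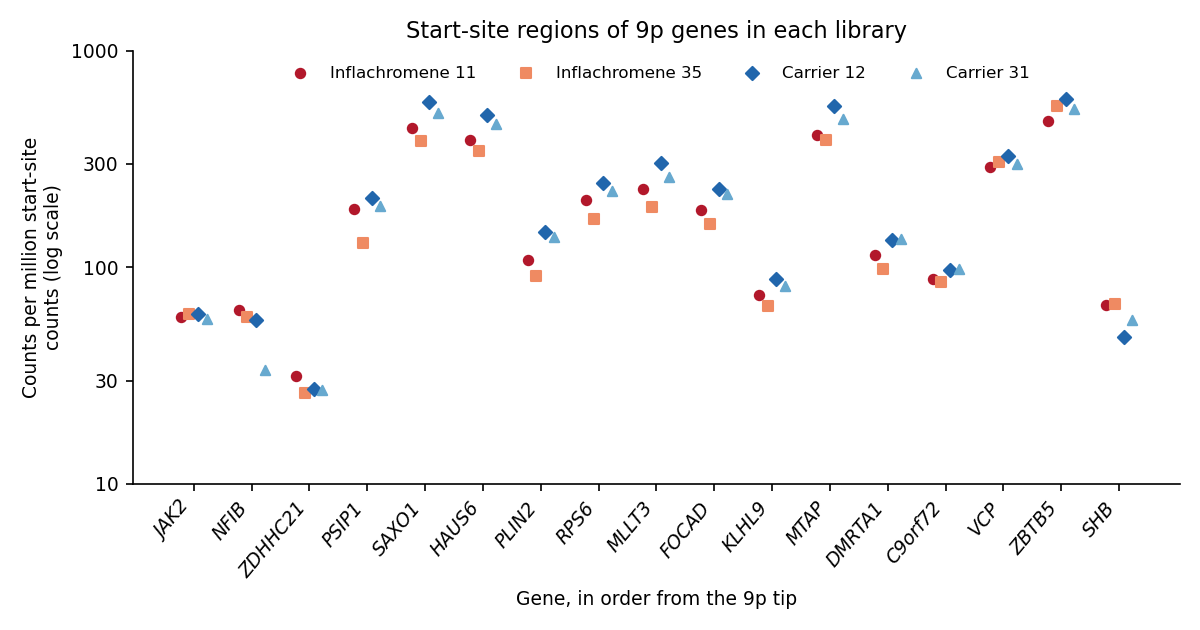
Start-site CPM (y axis, log scale) of 17 start-site regions of 9p are shown in order from the tip (x axis), with 1 symbol per library and the Inflachromene libraries left of the Carrier libraries. In the plotted genes from PSIP1 to C9orf72 both Inflachromene libraries lie below both Carrier libraries, while JAK2 and VCP overlap and SHB is higher in both Inflachromene libraries. TUSC1, which lies in that span and whose groups overlap, is not plotted.

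The type I interferon genes, which encode the antiviral interferons alpha, beta, epsilon and kappa, had no open start. None of the 14 in the table had a consensus region within 1000 bp, and only IFNA2 had a peak there, in 1 library. Their promoters also differed in sequence: the GC box stood at 0 of 14, and the median G and C content was 32.6%, against 60% on 9p. The alpha genes are near-identical copies, and how reads that match several copies were treated is not given in the sources used here, so their absence from the peaks is uncertain.

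Genes of immune signalling lay mostly outside the interval. Of 7 in the table, 4 had an open start, with a median log2 fold change of 0.05 and 1 of 4 below 0. JAK2, the kinase of several cytokine receptors, had 59.1 and 60.8 start-site CPM in Inflachromene mice, against 60.8 and 57.9 in Carrier mice (log2 fold change 0.02, SE 0.11). CD274, which encodes the checkpoint ligand PD-L1, had 11.9 and 19.9 in Inflachromene mice, against 15.8 and 16.5 in Carrier mice (-0.01, SE 0.28). RIGI, the sensor of viral RNA, had 105 and 127 in Inflachromene mice, against 103 and 110 in Carrier mice (0.13, SE 0.10). IL11RA, the interleukin 11 receptor, had 95.6 and 106 in Inflachromene mice, against 96.7 and 94.0 in Carrier mice (0.08, SE 0.09). The groups of all 4 overlapped, while IL33, CCL19 and CCL27 had no open start.

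Transcription and chromatin genes lay both inside and outside the interval. Of 15 in the table, 11 had an open start, and 8 of the 11 were below 0, with a median of -0.14. PSIP1, which encodes the chromatin tether LEDGF and lies in the second stretch, had 185 and 129 start-site CPM in Inflachromene mice, against 209 and 192 in Carrier mice (log2 fold change -0.36, SE 0.14). NFIB, a nuclear factor I gene before the interval, had 63.3 and 59.1 in Inflachromene mice, against 57.0 and 33.7 in Carrier mice (0.43, SE 0.20), with Carrier 31 well below the other libraries. BNC2, inside the interval, and PAX5, a B-cell transcription factor gene outside it, had like values of -0.30 and -0.29 (SE 0.17 and 0.21). SMARCA2, an ATPase of the SWI/SNF remodeller near the tip, had 122 and 105 in Inflachromene mice, against 87.2 and 103 in Carrier mice (0.25, SE 0.11). ZBTB5, a zinc finger gene with the highest count per kb of this list, had 473 and 557 in Inflachromene mice, against 596 and 538 in Carrier mice (-0.14, SE 0.09), so its groups overlapped.

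Metabolic genes gave the lowest single start site. Of 11 in the table, 9 had an open start, 7 were below 0 and the median was -0.10. PLIN2, which coats lipid droplets, had 108 and 90.8 start-site CPM in Inflachromene mice, against 145 and 138 in Carrier mice (log2 fold change -0.51, SE 0.10). HAUS6, an augmin subunit of the mitotic spindle which the list holds although it is no metabolic gene, had 387 and 345 in Inflachromene mice, against 508 and 461 in Carrier mice (-0.41, SE 0.08). ACER2, the Golgi alkaline ceramidase, had 167 and 127 in Inflachromene mice, against 193 and 191 in Carrier mice (-0.39, SE 0.11). ACO1, the cytosolic aconitase and iron regulator at 32.4 Mb, had 124 and 129 in Inflachromene mice, against 120 and 115 in Carrier mice (0.11, SE 0.08). The first 3 lie in the second stretch and ACO1 beyond the interval.

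Housekeeping genes served as a comparison within the arm. All 11 in the table had an open start, 7 were below 0 and the median was -0.02. These are by gene: APTX and DNAJA1 share 1 region, as do BAG1 and CHMP5, and each shared region counts for both genes. RPS6, a protein of the small ribosomal subunit, is the one inside the interval and was the lowest, with 204 and 168 start-site CPM in Inflachromene mice, against 245 and 225 in Carrier mice (log2 fold change -0.34, SE 0.10). VCP, the segregase of ubiquitylated proteins, had 292 and 307 in Inflachromene mice, against 327 and 300 in Carrier mice (-0.07, SE 0.07). CLTA, a clathrin light chain, had 259 and 276 in Inflachromene mice, against 279 and 272 in Carrier mice (-0.04, SE 0.07). The shared start of APTX and DNAJA1 had 199 and 186 in Inflachromene mice, against 175 and 179 in Carrier mice (0.12, SE 0.07).

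Per kb of region, MTAP and RPS6 were both below SAXO1. Mean levels over the 4 libraries were 516 start-site CPM per kb at SAXO1, 514 at ZBTB5, 478 at MTAP, 462 at HAUS6, 233 at RPS6, 213 at MLLT3 and 17.6 at CD274. Across the stretches the 11 genes of the second one were all below 0, from -0.51 at PLIN2 to -0.27 at CCDC171, and in all 11 the groups did not overlap. In the first stretch 5 of 23 genes were lower and 5 higher without overlap. Over all start-site regions of the series, 16.9% were lower and 17.5% higher without overlap.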

How the data were processed

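Nuclei were isolated and single-nucleus ATAC libraries made with 10x kits, per the labels' protocols. The build was GRCh38 and the tools Cell Ranger ATAC 2.1.0 and Cell Ranger ARC, per the submitters' processing notes; their settings were not given in the sources used here. The authors deposited, for each of the 4 libraries, a list of its own peaks, a list of barcodes and the raw counts of each barcode in each peak, as whole numbers. Between 82.4% and 84.9% of matrix entries above 0 are even, so 2 counts are often 1 fragment, and counting intervals cover counting error only.

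A library without a peak in a region has no count there, so tests used consensus regions on chromosomes 1 to 22 and X. Counts were summed per library over all barcodes, and the mouse was the replicate. Regions, start-site regions and 1 Mb bins were fitted with edgeR 4.0.16 (R 4.3.3; TMM, filterByExpr, quasi-likelihood F test, Benjamini-Hochberg adjustment over all features), and CPM values are scaled by TMM factors. DESeq2 1.42.0 was the other tool. Nuclei were scored with Python 3.11.15 (numpy 2.4.6, scipy 1.17.1, pandas 2.3.3) and a pseudocount of 0.5. The fits were tested on simulated data. Start sites, strand and promoters came from RefSeq; no genome sequence was used.

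The members, lists and tests were chosen with earlier results of these data known. Named items are CDKN2A, CDKN2B, MTAP and list members with a region, then, of the regions without overlap between groups, up to 10 in each direction by lowest unadjusted p, and the 3 with the highest mean count per kb. Edge regions, SAXO1, C9orf72 and plotted genes outside the lists were added after their values were seen, as were the score over 15 to 28 Mb, its thinning and the removal of shared barcodes.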

Additional observations from a re-analysis of the deposited data

How the results depend on the processing

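The sign of each median and difference below was the same under every alternative run, and none reversed. No paired analysis was possible because the mouse numbers 11, 35, 12 and 31 are not shared between the groups. The arm was selected on these counts, so calls on it are no evidence about it. Leaving out 1 library moved the edgeR calls on 9p between 0 and 34 regions, 0 and 6 bins and 0 and 11 start-site regions; the median over regions between -0.20 and -0.090 and over bins between -0.11 and -0.058; the difference in 9p share between -0.212 and -0.108 points; and that in arm-low nuclei between 8.98 and 13.3 points. DESeq2 called 2 bins and 4 start-site regions, and with each barcode counted once per region edgeR called 1 start-site region and the difference in 9p share was -0.0898 points. In nuclei that were not interval-low the median was -0.043 over regions, -0.027 over bins and -0.017 over start-site regions, and the difference in share was -0.0459 points; in nuclei that were not arm-low the start-site median was -0.027. Without barcodes in more than 1 library the median was -0.12 over bins and -0.092 over start-site regions, and summing all merged regions gave -0.13 over bins. The difference in arm-low nuclei was 16.1 points at a limit of -0.4, 6.47 at -0.6, 7.75 over even and 15.1 over odd Mb; over 15 to 28 Mb it was 26.7, with 30.9 at -0.4, 23.5 at -0.6, 30.6 above 20000 counts, 26.4 without shared barcodes and 25.3 when thinned. The low run ended at 38 Mb with a limit of -0.2, or of -0.3 in 3 libraries, passing over single bins that missed it, and began at 15 Mb under each rule run. Of 64 values of single genes and regions, 16 passed the threshold without Inflachromene 11, 3 with DESeq2 and 1 with each barcode counted once per region. By more than 1 SE, and with no call, 31 moved in nuclei that were not interval-low, 17 with each barcode counted once per region, 8 without shared barcodes, 5 in nuclei that were not arm-low and 9 to 14 on leaving out 1 library. The causes were not tested. Depth limits single scores: a nucleus of Inflachromene 35 had a median of 77 counts over the interval.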

Other observations

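Genes that act with the 9p21 proteins but lie on other chromosomes were measured at their start sites. Of 9 genes of the p16 pathway, 8 had a consensus region and RB1, the retinoblastoma protein gene, had none; 2 of the 8 were below 0, and the median log2 fold change was 0.06. CDK4, a kinase that p16 inhibits, had 175 and 190 start-site CPM in Inflachromene 11 and Inflachromene 35, against 169 and 192 in Carrier 12 and Carrier 31 (log2 fold change 0.02, SE 0.08). CDK6, its close relative, had 145 and 129 in Inflachromene mice, against 145 and 142 in Carrier mice (-0.07, SE 0.08). CDKN2C and CDKN2D, which encode the related inhibitors p18 and p19, stood at 0.06 each. In edgeR's quasi-likelihood test none of the 8 passed an adjusted p of 0.05.

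Of 13 genes that handle methylthioadenosine or depend on it, 12 had a consensus region, 3 were below 0, and the median was 0.07. PRMT5, the arginine methyltransferase that methylthioadenosine inhibits, had 289 and 294 start-site CPM in Inflachromene mice, against 314 and 294 in Carrier mice (log2 fold change -0.06, SE 0.07). MAT2A, which makes S-adenosylmethionine, had 189 and 176 in Inflachromene mice, against 166 and 173 in Carrier mice (0.11, SE 0.07). ODC1, the first enzyme of polyamine synthesis, had 148 and 157 in Inflachromene mice, against 120 and 144 in Carrier mice (0.21, SE 0.10). In edgeR's quasi-likelihood test none of the 12 passed an adjusted p of 0.05.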
